A study of Mus musculus with 15 samples.

Results

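Glutathione is the main small thiol of cells, and the genes that make it, spend it and break it down were followed here across 3 groups of mouse kidneys. The set holds 41 genes, all found by symbol among the 24421 symbols of a count table. They are 4 for synthesis and reduction, 8 for breakdown, 6 glutathione peroxidases and 23 glutathione transferases. The transferases divide into 4 of the alpha class, 7 mu, 2 pi, 3 theta, 2 omega, 1 kappa, 1 zeta and 3 microsomal. The kidneys came from wild-type mice on day 14: 3 after a sham operation on a normal diet, 6 after UUO (unilateral ureteral obstruction, which blocks the urine outflow of a kidney) on a normal diet, and 6 after UUO on a diet with a Si-based agent, called UUO_Si below. All 15 were whole-kidney total RNA libraries, so RNA from every cell type is mixed, and no sham kidney received the agent. The dose and start of the diet, the age and sex of the mice, and whether 1 library stands for 1 mouse are not given in the sources used here, so p-values measure the spread between these libraries.

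Glutathione is made in consecutive cytosolic steps: glutamate-cysteine ligase, a catalytic subunit (Gclc) with a modifier subunit (Gclm), joins glutamate to cysteine, and glutathione synthetase (Gss) adds glycine. Peroxidases oxidise it while reducing peroxides, glutathione reductase (Gsr) restores it with NADPH, and transferases couple it to electrophiles such as drugs and lipid aldehydes. Outside the cell, gamma-glutamyltransferase (Ggt1) on the brush border of the proximal tubule, the first and most metabolically active stretch of the nephron, starts its breakdown into amino acids that the tubule takes back up.

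In units of 1000000 counts, sham libraries held 5.53 to 8.31, UUO libraries 11.2 to 15.4 and UUO_Si libraries 7.75 to 11.5. Levels are given as CPM, counts per 1000000 after scaling library sizes by the TMM method. Of 1463 olfactory and vomeronasal receptor genes, which kidney is not known for, 4 libraries had counts in 834 to 1287, against 102 to 169 elsewhere. These libraries rich in receptor genes were replicate 6 of UUO_Si, replicates 5 and 6 of UUO, and replicate 3 of sham. The obstructed ones among them carry codes in their titles that begin with RM6 (UUO) or RM7 (UUO_Si), and the remaining obstructed libraries RM3 or RM4. What these codes stand for is not given in the sources used here. Chac2, Ggt7, Gss, Gpx2, Gpx8, Gstm5, Gsto1, Gsto2 and Gstz1 overlap a counted gene on the opposite strand, and since the strand setting of the counting is not given, reads of the 2 cannot be told apart there. All 12 proximal tubule markers (Lrp2, Cubn, Slc34a1 and others) were measured in the 3 groups, none at 0, and their sum was 19501 to 22180 CPM in sham, against 1067 to 2123 CPM in UUO kidneys and 814 to 2378 CPM with the diet. The 8 fibroblast markers summed to 401 to 601 CPM in sham, 5883 to 11064 CPM in UUO and 5132 to 6818 CPM in UUO_Si. For the 8 macrophage markers the sums were 111 to 147, 791 to 1056 and 721 to 1152 CPM in the same order.

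In obstructed kidneys more of the set fell than rose: of the 39 members with enough counts to test, 20 fell and 5 rose in UUO against sham, and 14 did not pass (edgeR's quasi-likelihood test, Benjamini-Hochberg adjusted p under 0.05 over 16752 genes). The members' median log2 fold change was -0.82, beside -0.04 over all genes tested. The background is high: 53.9% of all genes tested were called in this comparison, 26.4% lower and 27.5% higher. The 5 that rose were Ggt5, Ggt7, Gpx7, Gpx8 and Gsto1. Sham and UUO libraries did not overlap in CPM for 23 members, against 46.9% of all genes. Gpx2, the gastrointestinal peroxidase, and Mgst2, a microsomal transferase that can make leukotriene C4, did not reach the count filter and were at most 0.379 and 1.89 CPM in any library. In whole-kidney RNA, fewer cells of a type and less RNA per cell cannot be told apart, and all 12 proximal tubule markers fell in the same comparison (median log2 fold change -3.65). Other tubule segments had lower markers too. Of 8 loop of Henle and distal tubule markers 7 fell and 0 rose (median -1.99), and of 8 collecting duct markers 7 fell and 0 rose (median -1.36). The part of these cell types in the members' falls was not tested.

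**Figure D1:**
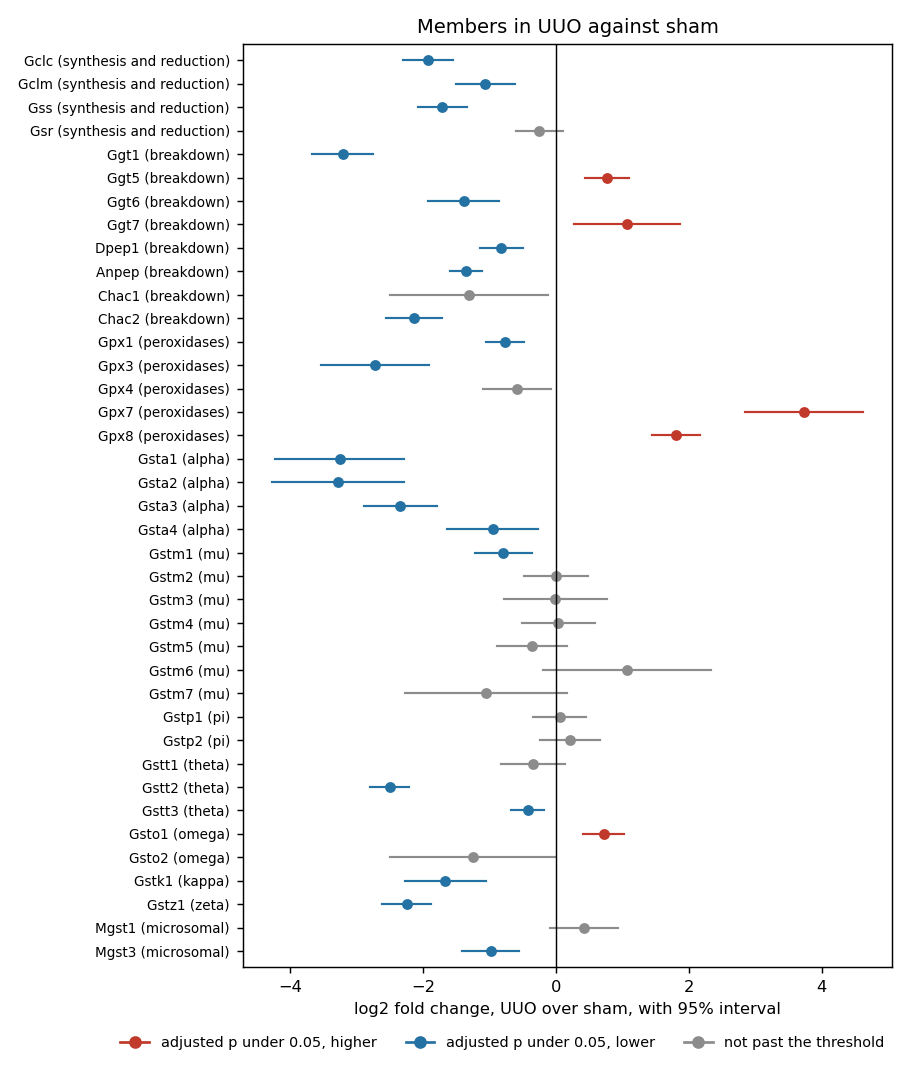
Log2 fold change of UUO over sham (horizontal axis) for the 39 members tested, with 95% intervals as bars, in red where a member rose, blue where it fell and grey where the test was not passed. The alpha class lies wholly to the left of 0, most of the mu class and both pi members straddle 0, and Gpx7 (3.74) and Gpx8 (1.81) lie farthest to the right.

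All 3 synthesis genes fell, while the reductase did not pass. Gclc (chr9:77754535-77794485, plus strand, mm10), the catalytic subunit that sets the rate of synthesis, was at 328, 408 and 492 CPM in sham, from 87.2 to 140.0 CPM (median 107) in UUO and from 97.9 to 171 CPM (median 125) in UUO_Si. Every sham library was above every obstructed one, and the log2 fold change of UUO over sham was -1.93 ± 0.18 (SE, edgeR adjusted p = 8.56e-08). Gclm (chr3:122245557-122270732, plus strand), the modifier subunit, was at 112, 117 and 99.8 CPM in sham, 41.6 to 76.4 CPM (median 45.7) in UUO and 37.3 to 79.0 CPM (median 54.8) in UUO_Si, also without overlap. Its log2 fold change was -1.06 ± 0.21 (SE, edgeR adjusted p = 3.89e-04). The log2 ratio of Gclc to Gclm in each library went from 1.88 ± 0.38 (SD, n = 3) in sham to 1.05 ± 0.23 (SD, n = 6) in UUO, a difference of -0.83 (exact permutation test, both sides, p = 0.0119). That p is the smallest that 3 against 6 libraries allow, and it was 0.0136 adjusted over 8 pairs of members. The pairs were chosen with earlier results of these data known, so the p-values of ratios here and below are descriptive and do not rank the pairs. Gss, the synthetase, went from 203, 197 and 188 CPM in sham to 43.5 to 75.8 CPM (median 56.6) in UUO, and UUO_Si was at 44.1 to 83.0 CPM (median 60.8), again without overlap. On the log2 scale UUO differed from sham by -1.71 ± 0.17 (SE, edgeR adjusted p = 3.02e-07). For Gsr, the reductase, the sham libraries were close together at 102, 104 and 107 CPM, and UUO spread from 62.0 to 117 CPM (median 77.9), with the replicates 5 and 6 above sham and the other 4 below it. The log2 estimate was -0.25 (95% interval -0.60 to 0.11, edgeR adjusted p = 0.224), and without the 4 libraries rich in receptor genes it was -0.48 (edgeR adjusted p = 0.00137).

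Of the 8 breakdown genes, 5 fell and 2 rose. Ggt1 (chr10:75561604-75586200, plus strand), the brush-border gamma-glutamyltransferase, had the largest fall among them: sham libraries were at 668, 603 and 585 CPM, UUO at 49.5 to 90.5 CPM (median 58.8) and UUO_Si at 47.7 to 111 CPM (median 68.1). The groups were far apart, and UUO over sham was -3.21 ± 0.22 (SE, edgeR adjusted p = 2.58e-09), a 9.25-fold lower fitted level. Ggt5, its neighbour on chromosome 10 (chr10:75589340-75617200, plus strand), whose enzyme also converts leukotriene C4 to D4, moved the other way, from 11.2, 14.2 and 14.02 CPM in sham to 17.4 to 27.5 CPM (median 22.4) in UUO, and UUO_Si was at 16.7 to 24.1 CPM (median 20.4), without overlap. It rose by 0.77 ± 0.16 (SE, edgeR adjusted p = 5.43e-04) on the log2 scale. The log2 ratio of Ggt1 to Ggt5 fell from 5.51 ± 0.29 (SD, n = 3) to 1.54 ± 0.53 (SD, n = 6), a difference of -3.97, given as a description since both genes were already apart in opposite directions. Ggt6, a less studied relative, fell from 14.6, 12.6 and 7.96 CPM in sham to 3.54 to 5.77 CPM (median 4.37) in UUO, and UUO_Si was at 2.72 to 6.68 CPM (median 4.40). The fitted log2 change was -1.39 ± 0.25 (SE, edgeR adjusted p = 1.90e-04). Ggt7, another relative, had few counts, at 1.003, 1.28 and 2.65 CPM in sham, 2.60 to 4.49 CPM (median 3.22) in UUO and 1.81 to 4.50 CPM (median 2.99) in UUO_Si, with sham replicate 3 inside the UUO range. It passed. The fit gave a log2 fold change of 1.07 ± 0.38 (SE, edgeR adjusted p = 0.0232). It lost its call without sham replicate 1 (0.82, edgeR adjusted p = 0.122) or sham replicate 2 (0.94, adjusted p = 0.0909), and without the libraries rich in receptor genes the value was 1.70.

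The 2 brush-border peptidases of the set also fell. Dpep1, the dipeptidase that splits cysteinylglycine, was at 101, 98.6 and 97.0 CPM in sham, 39.5 to 74.3 CPM (median 57.8) in UUO and 50.4 to 66.8 CPM (median 55.7) in UUO_Si, with no overlap. UUO over sham came to a log2 value of -0.82 ± 0.15 (SE, edgeR adjusted p = 2.16e-04). Anpep, aminopeptidase N, was at 219, 171 and 204 CPM in sham, 65.4 to 87.4 CPM (median 77.5) in UUO and 68.1 to 94.9 CPM (median 75.6) in UUO_Si, equally without overlap. Its log2 fold change was -1.35 ± 0.12 (SE, edgeR adjusted p = 3.96e-08). Inside the cell, Chac1 and Chac2 split glutathione at its gamma-glutamyl bond; Chac1 is induced by amino acid and endoplasmic reticulum stress. Chac2 fell from 41.4, 33.2 and 31.3 CPM in sham to 6.10 to 11.3 CPM (median 7.48) in UUO, and UUO_Si was at 6.78 to 11.6 CPM (median 8.51). On the log2 scale UUO differed from sham by -2.13 ± 0.20 (SE, edgeR adjusted p = 1.09e-07). Chac1 was near the count floor, at 0.573, 3.36 and 3.98 CPM in sham, 0.339 to 1.57 CPM (median 1.05) in UUO and 0.453 to 1.99 CPM (median 0.793) in UUO_Si, and sham replicate 1 lay inside the UUO range. Its log2 fold change was -1.31 (95% interval -2.50 to -0.11, edgeR adjusted p = 0.0603), which passed without sham replicate 1 (-1.78, edgeR adjusted p = 0.0138).

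Among the peroxidases the 2 that fell and the 2 that rose belong to different kinds of enzyme, and the difference can be read in the codon at the active site. Gpx1, Gpx3 and Gpx4 carry selenocysteine there, inserted at a TGA that elsewhere ends translation, whereas Gpx7 and Gpx8 have cysteine and reside in the endoplasmic reticulum, where they take part in oxidative protein folding and use glutathione poorly. The GENCODE coding sequences of mm10 are shown 15 bases to either side of that codon, which is in capitals. For Gpx1, Gpx3 and Gpx4 it is an annotated selenocysteine, and for Gpx7 and Gpx8 the codon that aligns with the one of Gpx4.

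Gpx1, codon 47, chr9:108339451-108339453, plus strand: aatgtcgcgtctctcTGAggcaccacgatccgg
Gpx3, codon 73, chr11:54907256-54907258, plus strand: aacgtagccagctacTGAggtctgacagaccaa
Gpx4, codon 73, chr10:80054737-80054739, plus strand: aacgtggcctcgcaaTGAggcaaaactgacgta
Gpx7, codon 56: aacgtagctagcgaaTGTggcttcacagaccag
Gpx8, codon 79: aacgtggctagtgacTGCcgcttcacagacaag

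Gpx3 (chr11:54902453-54910377, plus strand), the secreted plasma peroxidase made largely by kidney tubules, was the most abundant member, at 11400.1, 10409 and 8702 CPM in sham. It was at 839 to 2818 CPM (median 1123) in UUO and 811 to 3079 CPM (median 1356) in UUO_Si, so that every obstructed library was below every sham library. The log2 fold change of UUO over sham was -2.72 ± 0.38 (SE, edgeR adjusted p = 1.25e-05), a 6.59-fold lower fitted level. Gpx3 alone made up 91.1 to 92.8% of the summed peroxidase CPM in sham and 65.4 to 81.5% in UUO. Within UUO it was at 839 to 1135 CPM in the 4 libraries coded RM3 and at 2295 and 2818 in the 2 coded RM6, and in UUO_Si the RM7 library was the highest at 3079. Proximal tubule markers summed to 1067 to 1189 CPM, 1762 to 2123 CPM and 2378 CPM in the same libraries. In the RM4 libraries of UUO_Si they summed to 814 to 1925 CPM, a range that overlaps that of RM6. Without the 4 libraries rich in receptor genes its log2 fold change was -3.38 (edgeR adjusted p = 2.24e-08).

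Gpx1 (chr9:108338903-108340343, plus strand), the cytosolic and mitochondrial peroxidase of nearly all cells, fell less: 698, 687 and 668 CPM in sham against 324 to 458 CPM (median 413) in UUO and 351 to 545 CPM (median 475) in UUO_Si. The groups did not overlap, and the log2 fold change was -0.77 ± 0.13 (SE, edgeR adjusted p = 1.11e-04). Gpx4, which reduces lipid hydroperoxides in membranes and restrains ferroptosis, was at 182, 196 and 174 CPM in sham, 87.3 to 169 CPM (median 109) in UUO and 85.4 to 186 CPM (median 102) in UUO_Si. All UUO libraries were below the sham libraries, yet the log2 fold change of -0.58 ± 0.24 (SE, edgeR adjusted p = 0.0511) missed the threshold. UUO replicates 5 and 6 were the ones nearest to sham, at 168 and 169 CPM, and leaving out replicate 5 gave -0.69 (edgeR adjusted p = 0.0225) and leaving out replicate 6 gave -0.68 (adjusted p = 0.0211). Gpx7 (chr4:108400390-108406961, minus strand) had the largest rise of the set. It was barely detected in sham, at 0.573, 0.639 and 1.14 CPM, with 14 counts over the 3 libraries, and lay at 6.85 to 15.9 CPM (median 9.23) in UUO and 4.77 to 10.2 CPM (median 7.66) in UUO_Si. No obstructed library came near sham, and the log2 fold change of UUO over sham was 3.74 ± 0.42 (SE, edgeR adjusted p = 9.15e-07), 13.3-fold on the fitted scale. Gpx8 (chr13:113042753-113046410, minus strand), its relative, rose from 6.59, 8.95 and 8.52 CPM in sham to 22.3 to 35.6 CPM (median 27.3) in UUO, and UUO_Si was at 20.1 to 27.4 CPM (median 25), likewise without overlap. The fitted log2 change was 1.81 ± 0.17 (SE, edgeR adjusted p = 1.23e-07). From sham to UUO the log2 ratio of Gpx3 to Gpx7 went from 12.97 ± 0.53 (SD, n = 3) to 7.08 ± 0.35 (SD, n = 6), a difference of -5.89. It follows from the opposite changes of the pair and is given as a description, although the pair is among the 8 over which p was adjusted. The 8 fibroblast markers all rose in the same comparison (median log2 fold change 3.75). So did all 8 macrophage markers (median 3.10) and all 6 urothelium markers (median 3.07). The part of these cell types in the rise of Gpx7 and Gpx8 was not tested. Per kilobase of exon, the sham means were 5609.7 CPM for Gpx3, 475 for Gpx1, 107 for Gpx4, 7.65 for Gpx8 and 0.607 for Gpx7, and in UUO Gpx8 (26.7) and Gpx7 (7.97) still lay below Gpx4 (71.4).

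**Figure D2:**
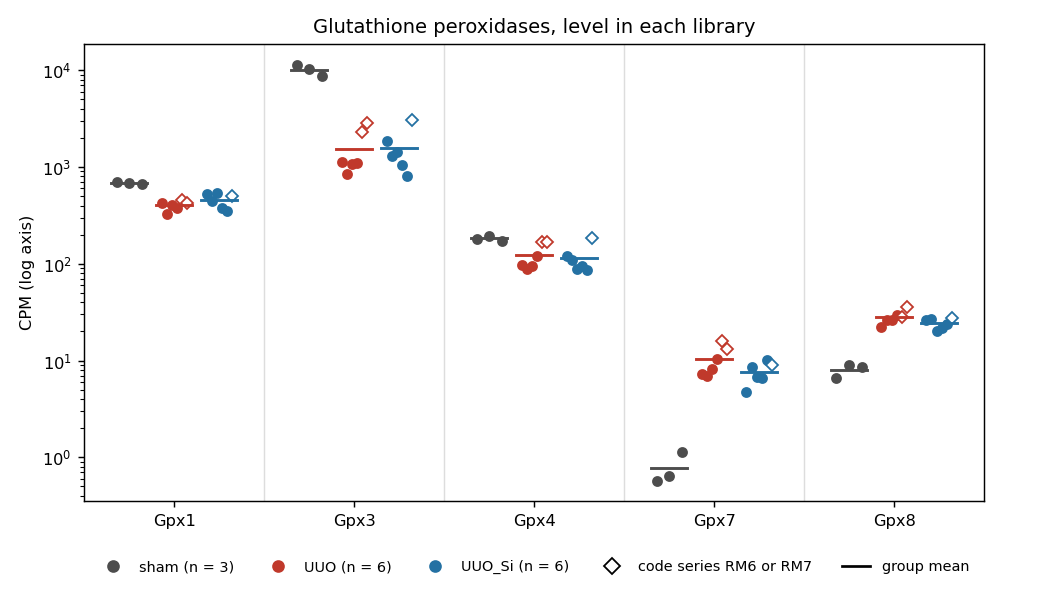
CPM on a log axis of the 5 tested peroxidases in each of the 15 libraries, with sham, UUO and UUO_Si side by side and group means as lines; open diamonds are libraries coded RM6 or RM7. Gpx3 falls from 8702 to 11400 CPM in sham to 811 to 3079 CPM in obstructed kidneys, while Gpx7 and Gpx8 are higher in every obstructed library than in any sham library.

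The 23 transferases together made up 1170.0 to 1298 CPM in sham, 394 to 804 after obstruction alone and 473 to 691 with the diet. The classes differed. Summed per library, the alpha class was at 302 to 409 CPM in sham and 31.6 to 136 in UUO, and the theta class at 144 to 225 and 54.3 to 64.7, neither with overlap. The mu class went from 352 to 458 CPM to 159.8 to 380.4, with overlap through UUO replicate 5, and the microsomal class was at 62.2 to 70.0 CPM in sham, inside the UUO range of 40.1 to 78.6. The pi class was likewise at 35.2 to 38.1 CPM within 29.1 to 51.7, and the omega class was higher in every UUO library, at 44.0 to 62.1 against 33.1 to 33.9 CPM. With the counts of a class summed to a single feature, the log2 fold change of UUO over sham was -2.20 (95% interval -2.84 to -1.56) for alpha, -1.74 (95% interval -2.01 to -1.47) for theta and -0.61 (95% interval -1.04 to -0.18) for mu. The microsomal class was at -0.15 (95% interval -0.60 to 0.30), pi at 0.12 (95% interval -0.28 to 0.53) and omega at 0.65 (95% interval 0.34 to 0.96). A sum follows its most abundant member, and the theta value is near that of Gstt2 (-2.50), while Gstt1 (-0.34) and Gstt3 (-0.43) were much nearer to 0. The median log2 fold change over the tested members of a class was -2.80 for alpha, -0.43 for theta, -0.28 for microsomal, -0.01 for mu, 0.13 for pi and -0.27 for omega. Classes were not tested against each other. As a share of all transferase CPM, alpha was 28.9 ± 3.05% in sham and 12.7 ± 3.01% in UUO, and mu 32.7 ± 5.96% and 44.9 ± 2.45% (mean ± SD, n = 3 and n = 6). Microsomal enzymes were at 5.19 ± 0.29% and 9.87 ± 0.50%, and omega 2.69 ± 0.19% and 9.25 ± 1.64% (mean ± SD, n = 3 and n = 6).

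**Figure D3:**
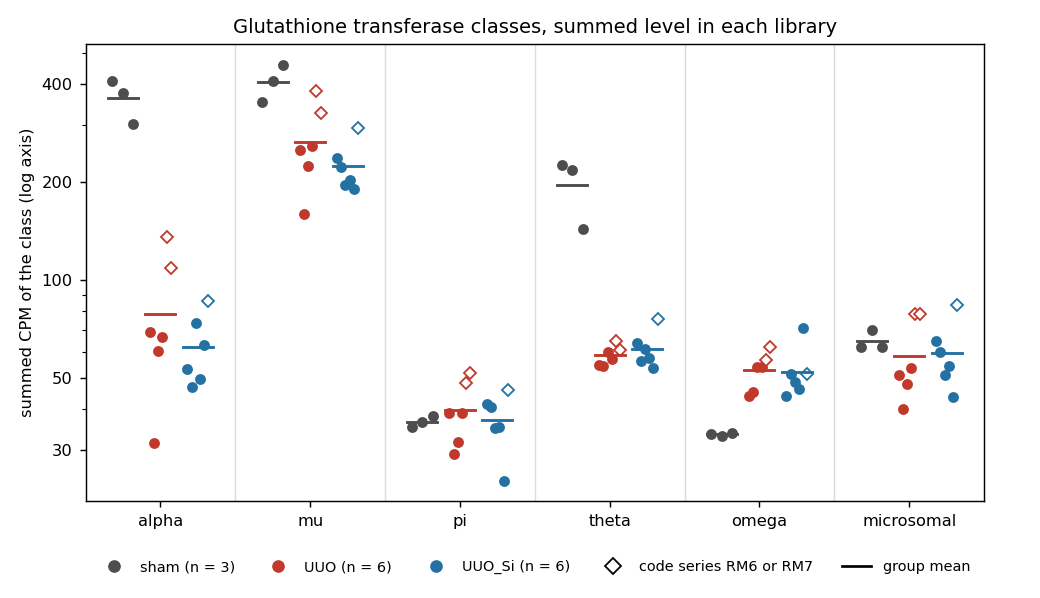
Summed CPM on a log axis of 6 transferase classes in each library, with sham, UUO and UUO_Si side by side, group means as lines, and open diamonds for libraries coded RM6 or RM7. The alpha and theta classes are lower in every obstructed library than in sham, the omega class is higher, and in the mu, pi and microsomal classes at least 1 obstructed library reaches the sham range.

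All 4 alpha transferases, which conjugate xenobiotics and reduce organic peroxides in liver and proximal tubule, fell. The 2 with the largest falls, Gsta1 and Gsta2, lie on chromosome 9 in opposite directions and were also alike at their start sites. Their RefSeq promoters (GRCm38.p6, 250 bases before to 50 after the start) are 74.6% identical over the window. The longest run of letters that both hold, 29 bases, is in capitals, from -121 to -93 relative to the start in Gsta2 and -118 to -90 in Gsta1.

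Gsta2, chr9:78347096-78347395, minus strand: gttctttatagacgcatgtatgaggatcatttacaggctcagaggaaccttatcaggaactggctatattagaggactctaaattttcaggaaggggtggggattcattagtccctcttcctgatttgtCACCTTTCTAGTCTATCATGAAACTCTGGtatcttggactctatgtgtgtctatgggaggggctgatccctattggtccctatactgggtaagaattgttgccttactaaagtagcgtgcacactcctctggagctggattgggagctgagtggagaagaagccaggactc
Gsta1, chr9:78230419-78230718, plus strand: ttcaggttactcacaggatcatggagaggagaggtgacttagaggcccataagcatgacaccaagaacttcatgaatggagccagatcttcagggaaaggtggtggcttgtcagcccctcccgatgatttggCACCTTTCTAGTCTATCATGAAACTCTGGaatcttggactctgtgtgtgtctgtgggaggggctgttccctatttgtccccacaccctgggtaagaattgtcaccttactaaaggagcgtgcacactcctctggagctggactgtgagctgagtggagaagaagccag

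Gsta2 (chr9:78331018-78355788, minus strand) was at 203, 190.2 and 161 CPM in sham, 8.98 to 36.3 CPM (median 12.3) in UUO and 7.41 to 35.3 CPM (median 15.1) in UUO_Si. The groups were apart, and its log2 fold change of UUO over sham was -3.28 ± 0.47 (SE, edgeR adjusted p = 1.48e-05), the lowest of the set. Gsta1 (chr9:78230656-78242684, plus strand) was at 43.8, 38.4 and 33.2 CPM in sham, 1.69 to 8.37 CPM (median 2.27) in UUO and 1.51 to 6.33 CPM (median 2.82) in UUO_Si. The fit gave a log2 fold change of -3.25 ± 0.46 (SE, edgeR adjusted p = 1.31e-05). In UUO both were highest in replicates 5 and 6, with a mean 3.33 times that of the other 4 libraries for Gsta2 and 3.91 times for Gsta1. Without the libraries rich in receptor genes the log2 fold changes were -4.19 and -4.33. Their coding sequences are 97.6% identical and share 50.4% of 50-base windows, so how reads were split between them is uncertain. Gsta3 (chr1:21240589-21265661, plus strand) fell from 57.2, 50.2 and 42.4 CPM in sham to 6.14 to 18.0 CPM (median 8.35) in UUO, and UUO_Si was at 7.40 to 10.8 CPM (median 8.68) without overlap. UUO over sham came to a log2 value of -2.34 ± 0.26 (SE, edgeR adjusted p = 7.34e-07). Gsta4, which is specialised for reactive aldehydes from lipid peroxidation, fell least, from 105, 95.6 and 65.4 CPM to 14.2 to 73.0 CPM (median 45.8). UUO replicate 5 (73.0 CPM) lay above sham replicate 3, and the log2 fold change was -0.95 ± 0.33 (SE, edgeR adjusted p = 0.0208). The call was lost without sham replicate 1 (-0.80, edgeR adjusted p = 0.103), sham replicate 2 (-0.89, adjusted p = 0.0725) or the count filter (-0.91, adjusted p = 0.0594). Without the libraries rich in receptor genes the value was -1.44. Within each library the log2 ratio of Gsta2 to Gsta4 went from 1.08 ± 0.19 (SD, n = 3) to -1.35 ± 0.70 (SD, n = 6), a difference of -2.43 (exact permutation test, p = 0.0119, adjusted 0.0136).

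The mu class, a cluster on chromosome 3 whose enzymes conjugate epoxides and other electrophiles, was mostly not past the threshold: 1 of 7 fell. Gstm1 (chr3:108012255-108017973, minus strand), its most abundant member in CPM per kilobase (212 in sham), was at 259.9, 318 and 359.9 CPM in sham, 99.2 to 262 CPM (median 176) in UUO and 120.2 to 182 CPM (median 139) in UUO_Si. UUO replicate 5 lay inside the sham range, and the log2 fold change was -0.79 ± 0.21 (SE, edgeR adjusted p = 0.00372). Gstm2 was at 40.7, 49.2 and 40.0 CPM in sham, 29.4 to 62.5 CPM (median 37.6) in UUO and 30.4 to 48.1 CPM (median 35.8) in UUO_Si, with UUO replicates 5 and 6 above sham and 3 of the other 4 below it. It was estimated at 0.00 (95% interval -0.48 to 0.48, edgeR adjusted p = 0.998), and -0.38 (adjusted p = 0.0475) without the 4 libraries rich in receptor genes. The log2 ratio of Gstm1 to Gstm2 differed by -0.78 between UUO and sham (exact permutation test, p = 0.0119, adjusted 0.0136), without overlap. Gstm5, at 36.4, 27.5 and 38.3 CPM in sham, 17.6 to 35.7 CPM (median 23.7) in UUO and 17.7 to 43.7 CPM (median 29.7) in UUO_Si, overlapped. Its log2 fold change was -0.36 (95% interval -0.89 to 0.16, edgeR adjusted p = 0.231), and -0.55 (adjusted p = 0.0285) without those 4 libraries. Gstm4 was at 0.04 (95% interval -0.52 to 0.60, edgeR adjusted p = 0.911) and Gstm3 at -0.01 (95% interval -0.78 to 0.77, edgeR adjusted p = 0.99), on the log2 scale. Gstm6 was at 1.07 (95% interval -0.19 to 2.33, edgeR adjusted p = 0.142) and Gstm7 at -1.05 (95% interval -2.28 to 0.17, edgeR adjusted p = 0.137). In these 4 the groups overlapped, and Gstm3, Gstm6 and Gstm7 had group means of at most 3.33 CPM. The signs for Gstm2, Gstm3 and Gstm4 changed under other settings. Gstm6 passed without sham replicate 3 (1.88, adjusted p = 0.0334), and Gstm7 passed when only libraries coded RM1, RM3 and RM4 were kept (-1.40, adjusted p = 0.0381). Coding sequences of Gstm1 and Gstm3 are 89.4% identical, which leaves the split of their reads uncertain.

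The pi class, whose enzymes conjugate electrophiles and bind stress kinases, did not pass. Gstp1 was at 20.9, 21.3 and 22.9 CPM in sham, 16.9 to 28.7 CPM (median 22.2) in UUO and 14.1 to 26.2 CPM (median 22.2) in UUO_Si. For Gstp2 the values were 14.3, 15.2 and 15.2 CPM and 12.2 to 23.0 CPM (median 16.8). Sham lay inside the UUO range for both, with log2 fold changes of 0.06 (95% interval -0.34 to 0.46, edgeR adjusted p = 0.81) for Gstp1 and 0.21 (95% interval -0.24 to 0.66, edgeR adjusted p = 0.43) for Gstp2. Both values were below 0 when only libraries coded RM1, RM3 and RM4 were kept (-0.12 and -0.01). The pair share 98.1% of their coding bases, so their separate values are uncertain. In the theta class, on chromosome 10, 2 of 3 fell. Gstt2 (chr10:75831114-75837424, minus strand), which reduces organic hydroperoxides and conjugates sulfate esters, was at 176, 181 and 108 CPM in sham, a narrow 24.7 to 29.98 CPM (median 27.1) in UUO and 25 to 34.6 CPM (median 28.5) in UUO_Si. No libraries overlapped, and its log2 fold change of -2.50 ± 0.14 (SE, edgeR adjusted p = 4.69e-10) had the smallest p of the set. Gstt3 fell from 26.4, 19.2 and 20.1 CPM in sham to 15.6 to 17.4 CPM (median 16.1) in UUO, and UUO_Si was at 15.4 to 19.3 CPM (median 17.1). On the log2 scale UUO differed from sham by -0.43 ± 0.12 (SE, edgeR adjusted p = 0.00502), a call that rested on sham replicate 1 (-0.25, adjusted p = 0.103 without it). Gstt1, which handles small halogenated compounds, overlapped at 23.1, 17.6 and 16.1 CPM in sham, 10.9 to 20.5 CPM (median 14.8) in UUO and 10.3 to 22.3 CPM (median 13.9) in UUO_Si. The fitted log2 change was -0.34 (95% interval -0.83 to 0.14, edgeR adjusted p = 0.22), and passed without the 4 libraries rich in receptor genes (-0.61, adjusted p = 0.0153). The log2 ratio of Gstt1 to Gstt2 rose from -2.98 ± 0.32 (SD, n = 3) to -0.88 ± 0.33 (SD, n = 6), a difference of 2.10 (exact permutation test, p = 0.0119, adjusted 0.0136).

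Gsto1 (chr19:47854970-47864790, plus strand), an omega transferase that removes glutathione from proteins and reduces dehydroascorbate, was the only transferase called higher. Sham libraries were tight at 31.1, 31.6 and 31.6 CPM, UUO was at 42.9 to 61.1 CPM (median 53.5) and UUO_Si at 43.9 to 69.2 CPM (median 49.3). Every obstructed library was higher, and the log2 fold change of UUO over sham was 0.72 ± 0.15 (SE, edgeR adjusted p = 5.35e-04). Gsto2, its neighbour, had little signal, at 2.44, 1.44 and 2.27 CPM in sham, 0.253 to 1.46 CPM (median 0.877) in UUO and 0.199 to 1.76 CPM (median 0.697) in UUO_Si, and did not pass. The fit gave a log2 fold change of -1.25 (95% interval -2.49 to -0.01, edgeR adjusted p = 0.0829). Gstz1 (chr12:87147165-87164723, plus strand), the zeta enzyme of tyrosine breakdown, fell from 134, 134 and 107 CPM in sham to 19.0 to 31.5 CPM (median 27.3) in UUO, and UUO_Si was at 22.1 to 43.8 CPM (median 26.5) without overlap. UUO over sham came to a log2 value of -2.25 ± 0.18 (SE, edgeR adjusted p = 1.47e-08). Gstk1 (chr6:42245935-42250447, plus strand), the kappa enzyme of mitochondria and peroxisomes, fell from 30.8, 23.7 and 24.2 CPM in sham to 5.06 to 13.5 CPM (median 6.83) in UUO, and UUO_Si was at 5.32 to 11.4 CPM (median 6.51), also without overlap. Its log2 fold change was -1.66 ± 0.29 (SE, edgeR adjusted p = 1.15e-04). The microsomal enzymes are membrane proteins of another family than the soluble classes, and their 2 tested members differed. Mgst3 (chr1:167371966-167393841, minus strand) fell from 34.8, 36.8 and 29.9 CPM in sham to 12.3 to 21.7 CPM (median 18.0) in UUO, and UUO_Si was at 11.6 to 24.2 CPM (median 16.9) without overlap. On the log2 scale UUO differed from sham by -0.98 ± 0.20 (SE, edgeR adjusted p = 5.84e-04). Mgst1 (chr6:138140316-138156755, plus strand), which also reduces lipid peroxides in the endoplasmic reticulum and outer mitochondrial membrane, was at 27.2, 33.2 and 30.5 CPM in sham, 27.5 to 58.9 CPM (median 35.7) in UUO and 30.8 to 58.7 CPM (median 39.9) in UUO_Si, with overlap. The fitted log2 change was 0.42 (95% interval -0.09 to 0.94, edgeR adjusted p = 0.155). Their log2 ratio, Mgst1 to Mgst3, went from -0.16 ± 0.19 (SD, n = 3) to 1.18 ± 0.32 (SD, n = 6), a difference of 1.33 (exact permutation test, p = 0.0119, adjusted 0.0136), with no overlap. Of the 8 pairs, Chac1 to Chac2 was the one whose groups overlapped (difference 1.26, exact permutation p = 0.0357, adjusted 0.0357), and its call depended on single libraries. By the same exact test p was 0.214 without sham replicate 1 (difference 0.49), 0.107 without sham replicate 2, 0.0536 without UUO replicate 2, 4, 5 or 6, and 0.131 with an offset of 0.1 CPM.

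Part of the spread within UUO followed the title codes. Of the 39 tested members, 25 were higher in both RM6 libraries than in all 4 RM3 libraries, where 22.5% of all genes were, and 1 (Ggt5) was lower in both, against 23.7% of genes. Taking RM6 and RM7 together, 15 members were higher than in all RM3 and RM4 libraries (11.4% of genes): Gclm, Gsr, Anpep, Gpx3, Gpx4, Gsta1, Gsta3, Gstm1, Gstm2, Gstm5, Gstm7, Gstp1, Gstp2, Gstk1 and Mgst1. The same libraries had counts in more receptor genes than the other obstructed libraries. Their proximal tubule marker sums were above those of the RM3 libraries (1067 to 1189 CPM). Against RM4 they overlapped, as RM4 reached 1925 CPM and the lower RM6 library was at 1762 CPM. The part of the markers or of the receptor genes was not tested. Sham libraries all carried RM1, so the operation and the code cannot be told apart between sham and UUO. UUO (RM3 and RM6) and UUO_Si (RM4 and RM7) shared no code either. The diet and the code therefore cannot be told apart between them, also where RM6 and RM7 are left out. Without the 4 libraries rich in receptor genes, leaving 2 sham and 4 UUO, 5 members rose and 25 fell, where 57.4% of all genes tested were called, 30.1% higher and 27.3% lower. The added calls were Gsr, Gpx4 (-0.90, edgeR adjusted p = 2.60e-05), Gstm2, Gstm5 and Gstt1.

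The diet comparison asked whether the Si-based agent was followed by other levels in obstructed kidneys, and here no member passed. In UUO_Si against UUO 0 of 39 members and 0 of 16752 genes (0.0%) were called by edgeR's quasi-likelihood test, with 626 genes (3.74%) and 1 member at an unadjusted p under 0.05. DESeq2 called 2 genes, Phlda1 and Sfrp4, named after their values were seen and neither a member. The members' median log2 fold change was -0.02, with 18 above 0 and 21 below, beside 0.00 over all genes, of which 50.3% were above 0 and 49.7% below. For every member the UUO and UUO_Si libraries overlapped (0.203% of genes did not). The 6 members with the smallest p are given with their intervals; each had an edgeR adjusted p of 0.999. Gsta4 was at 14.2 to 73.0 CPM (median 45.8) in UUO and 23.4 to 46.2 CPM (median 26.4) in UUO_Si, with a log2 fold change of -0.60 (95% interval -1.19 to -0.01) by edgeR's test across all genes. Gpx7 was at 6.85 to 15.9 CPM (median 9.23) and 4.77 to 10.2 CPM (median 7.66), with -0.43 (95% interval -0.91 to 0.04) in that test. Gstm1 was at 99.2 to 262 CPM (median 176) and 120.2 to 182 CPM (median 139), with -0.33 (95% interval -0.69 to 0.04). Among these, Gclc had the highest estimate, at 0.27 (95% interval -0.04 to 0.59), followed by Gpx1 at 0.19 (95% interval -0.05 to 0.42), and Gpx8 was at -0.20 (95% interval -0.45 to 0.05). All 8 fibroblast markers were below 0 in the same comparison (median log2 fold change -0.52), with 0 called. Their part in the values of Gpx7 and Gpx8 was not tested. With libraries coded RM6 and RM7 left out, Gsta4 was at -0.34 and Gpx7 at -0.16, and Gclc at 0.32, with no call. Gpx3 had a wide interval, 0.04 (95% interval -0.65 to 0.72), and was at 0.31 without those libraries, again not called. By class, the summed counts of UUO_Si over UUO gave -0.34 (95% interval -0.89 to 0.21) for alpha, -0.25 (95% interval -0.61 to 0.10) for mu, 0.07 (95% interval -0.16 to 0.30) for theta and 0.03 (95% interval -0.33 to 0.40) for microsomal, all intervals that include 0. The alpha value moved with the RM6 libraries: the class summed to 109 and 136 CPM in these, to 31.6 to 69.0 CPM in the RM3 libraries of UUO and to 46.8 to 73.7 CPM in the RM4 libraries of UUO_Si. Without RM6 and RM7, Gsta1 went from -0.23 to 0.46, Gsta3 from -0.16 to 0.21 and Gsta2 from 0.05 to 0.65 on the log2 scale, none called.

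**Figure D4:**
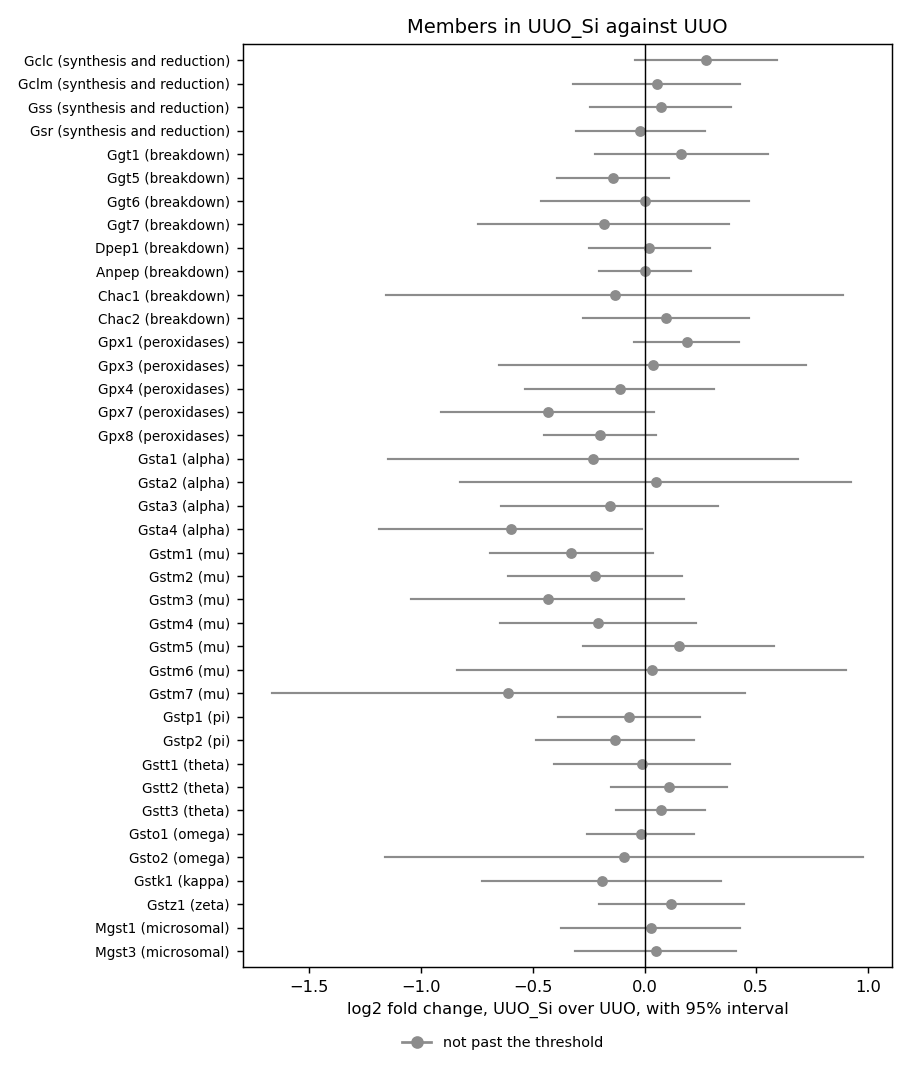
Log2 fold change of UUO_Si over UUO (horizontal axis) for the 39 members tested, with 95% intervals as bars; all are grey because none passed the test. Nearly all intervals include 0, Gsta4 ends just below it, and the widest belong to members with few counts such as Gstm7, Chac1 and Gsto2.

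Against the same 3 sham libraries, so not independent of the first comparison, UUO_Si had 27 members called, 4 higher and 23 lower, where 52.7% of all genes were called. Those called here and not in UUO were Gpx4 (-0.69 (adjusted p = 0.0229) by edgeR), Gstm7 (-1.66 (adjusted p = 0.0261)) and Chac1 (-1.44 (adjusted p = 0.0443)), and Ggt7 was not (0.89 (adjusted p = 0.0578)). These differences in call are not differences between the diets, where the intervals of all 4 included 0. Gpx4 lost its call without sham replicate 1 (adjusted p = 0.0604) or 2 (0.0805). Gstm7 lost it without sham replicate 1 (0.106), sham replicate 3 (0.0983) or UUO_Si replicate 2 (0.0514), by the same adjusted p. Chac1 lost it under most settings, among them leaving out sham replicate 2 (0.173) or 3 (0.206) or any of UUO_Si replicates 2 to 6 (0.0606 to 0.0806), and its value was -0.96 without the libraries rich in receptor genes. Ggt7 gained one without sham replicate 3 (adjusted p = 0.0112), UUO_Si replicate 1 (0.0455) or UUO_Si replicate 3 (0.0341). The large changes of the first comparison are given side by side: Gpx3 -2.68 beside -2.72, Ggt1 -3.05 beside -3.21, Gsta2 -3.23 beside -3.28, Gpx7 3.30 beside 3.74 and Gsto1 0.70 beside 0.72 on the log2 scale.

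Genes around the pathway were read from 9 lists by the same fit, in UUO against sham, where 26.4% of all genes fell and 27.5% rose. Against that background, the total share called in the thiol enzyme, carrier and transferase-like lists is close to the 53.9% over all genes. Of 8 cystine and cysteine supply genes, 6 fell and none rose (median log2 fold change -2.46), among them the brush-border cystine transporter subunits Slc7a9 (-3.07) and Slc3a1 (-2.57). The tested genes of a list around mercapturic acids, the excreted form of glutathione conjugates, all fell, 6 of 6 (median -3.66). The smallest p were those of the aminoacylase Acy1 (-4.06) and the N-acetyltransferase relative Cml1 (-4.68). Not every gene of this list makes mercapturic acids, Acy1 among them, so the count is not one of their synthesis alone. In the NADPH list 6 of 10 fell and 1 rose (median -1.21), with the mitochondrial transhydrogenase Nnt at -1.75 and the folate enzyme Mthfd1 at -2.36. The gene that rose was G6pdx (1.18), the entry enzyme of the pentose phosphate pathway. Of 14 glutathione-linked thiol enzymes 6 fell and 1 rose (median -0.26), with Hagh of the glyoxalase system at -1.63 and the mitochondrial glutaredoxin Glrx5 at -1.39. Of 6 tested further gamma-glutamyl cycle genes 4 fell and 2 rose (median -1.07), with the oxoprolinase Oplah at -1.64 and leucine aminopeptidase Lap3 at -1.20. Carriers of glutathione and its conjugates fell in 5 of 10 and rose in 1 (median -0.56), with the export pump Abcc3 at -1.94 and the mitochondrial carrier Slc25a10 at -2.52. In the selenium list 7 of 11 fell and none rose (median -0.69), with Lrp2, the tubular receptor for selenoprotein P that is also a proximal tubule marker, at -3.72, and Sepsecs, an enzyme of selenocysteine synthesis, at -1.44. Among 7 tested transferase-like genes 3 rose and 1 fell (median 0.33), with Alox5ap at 3.36 and Hpgds at 1.98, both eicosanoid genes of leukocytes, beside macrophage markers of which 8 of 8 rose. The part of those cells was not tested. The last list, of other transferases and peroxidases, had 1 gene with enough counts, Gpx6 (-4.69), which fell. Every gene named here passed at an adjusted p under 0.05 by edgeR's quasi-likelihood test, and in UUO_Si against UUO none of the 9 lists had a gene called.

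Promoters were searched for the core of the antioxidant response element, to which the factor Nrf2 binds, as TGACNNNGC on both strands. It was in 8 of 51 promoters (15.7%) of the 36 members that have an entry in the RefSeq table, beside 12.4% of its 32851 promoters. These promoters belong to 6 members, Gclm, Ggt1, Gsta3, Gstm5, Gstm7 and Mgst1, of which 3 fell, none rose and 3 did not pass in UUO against sham. None of the promoters of Gsta1, Gsta2, Gpx7 and Gpx8, the largest falls and rises with an entry, holds these letters in this window. The windows of the 2 peroxidases that rose are shown for comparison with those of Gsta1 and Gsta2, with no part in capitals.

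Gpx7, chr4:108406664-108406963, minus strand: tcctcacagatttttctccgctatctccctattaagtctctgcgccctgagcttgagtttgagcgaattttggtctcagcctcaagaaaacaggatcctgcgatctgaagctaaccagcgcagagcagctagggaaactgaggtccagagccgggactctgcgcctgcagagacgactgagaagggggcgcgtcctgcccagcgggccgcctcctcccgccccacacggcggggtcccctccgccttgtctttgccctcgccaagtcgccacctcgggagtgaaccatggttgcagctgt
Gpx8, chr13:113046339-113046638, minus strand: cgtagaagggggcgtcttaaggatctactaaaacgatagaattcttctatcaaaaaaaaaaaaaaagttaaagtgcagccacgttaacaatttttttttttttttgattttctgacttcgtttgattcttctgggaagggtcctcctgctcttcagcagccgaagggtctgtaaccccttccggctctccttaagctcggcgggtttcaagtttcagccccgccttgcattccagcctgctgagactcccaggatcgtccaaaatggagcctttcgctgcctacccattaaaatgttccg

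Gpx7 has 19 CG pairs and 60.3% G and C in its window, Gpx8 13 and 45.3%, and Gsta1 and Gsta2 2 CG pairs each with 51.0% and 45.7%. Gsta1 and Gsta2 are at the low end of the members that fell: the 17 of these with an entry had a median of 9 CG pairs and a range of 2 to 48, the 4 that rose with an entry a median of 14.5 and a range of 13 to 19, and the 13 not called a median of 12. The median over all promoters of the table is 7 CG pairs, and no test was made on these letters.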

How the data were processed

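Kidney RNA of 15 mouse libraries was measured by RNA-seq with a SMARTer stranded total RNA kit (v2), per the labels' protocols. The submitters' processing notes name TopHat2 2.1.1, Cuffdiff 2.2.1 and mm10, with no role given. The authors deposited 1 table of expected counts per gene symbol (79.0 to 83.0% of values whole), which were rounded here; the counting tool and its strand setting are not given in the sources used here. All 41 members were found, and 23376 of 24421 symbols matched GENCODE M21. All 3 groups entered 1 fit in edgeR 4.0.16 (R 4.3.3): TMM scaling, filterByExpr with a minimum count of 10, robust quasi-likelihood test with a mean per group, Benjamini-Hochberg adjustment over all 16752 genes tested and a threshold of 0.05. CPM uses TMM-scaled library sizes, and CPM per kilobase divides by the merged exon length. Ratios of members used log2(CPM + 0.5) and exact permutation tests over libraries (SciPy 1.17.1), adjusted over 8 pairs. DESeq2 1.42.0, limma 3.58.1, other scalings and filters, and left-out libraries were tried as alternatives. An edgeR fit with the main settings was run on simulated counts with known changes, for UUO against sham only. The other steps were not tried on simulated data. All members were accounted for by class in UUO against sham, the 6 with the smallest p in UUO_Si against UUO, and the 2 genes with the smallest p of each pathway list. The members, lists and pairs were chosen with earlier results of these data known. Protein sequences were not used here. Promoters came from RefSeq (GRCm38.p6); Gsr, Gstt2, Gsta4, Gclc and Ggt5 had no entry. The labels do not say that replicate numbers pair libraries, and the main fit did not pair them. Correlations of same-numbered deviations ran from -0.39 to 0.75, which can neither show nor exclude pairing. The value of 0.75 was between replicate 6 of UUO and replicate 6 of UUO_Si, both rich in receptor genes.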

Additional observations from a re-analysis of the deposited data

Results flagged for a closer look

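Among 78 groups of 6 libraries (39 members in UUO and in UUO_Si), 3 had 1 library far from the rest by Dixon's test of the gap over the range, which chance gives in about 1 of 20 groups. All were in UUO_Si. Gpx4, the lipid hydroperoxide peroxidase, was at 186 CPM in replicate 6 and 85.4 to 120.1 CPM in the other 5. Gstz1, the zeta transferase, was at 43.8 CPM in the same replicate and 22.1 to 28.1 CPM in the others. Gsto1, the omega transferase, was at 69.2 CPM in replicate 5 and 43.9 to 51.0 CPM in the others. UUO_Si replicate 6 is the library coded RM7.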

How the results depend on the processing

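The calls of UUO against sham were 5 members higher and 20 lower, and 4 to 6 higher and 19 to 22 lower when each library was left out in turn. Of single-gene values under other settings, 930 kept direction and side of the threshold, 28 kept direction and passed only in the alternative, 26 lost the call and 31 changed sign. Among the last, Gstm2 without the libraries rich in receptor genes also passed (-0.38, edgeR adjusted p = 0.0475). In UUO_Si against UUO, edgeR called 0 genes under every setting run, and DESeq2 called 2. Without the libraries rich in receptor genes, 2 sham and 4 UUO libraries remain, and no exact test can go below 0.0667. The exact permutation p of both sides was 0.133 for Gclc to Gclm and for Gstm1 to Gstm2, whose groups still did not overlap, and 0.0667 for the other 6 pairs. The log2 ratio differences were then -0.53 for Gclc to Gclm, -4.39 for Ggt1 to Ggt5, 1.71 for Chac1 to Chac2, -6.35 for Gpx3 to Gpx7, -2.59 for Gsta2 to Gsta4, -0.55 for Gstm1 to Gstm2, 2.10 for Gstt1 to Gstt2 and 1.27 for Mgst1 to Mgst3. Chac1 to Chac2 was 1.14 with an offset of 0.1 CPM (exact permutation p = 0.131) and 0.49 to 1.72 with a library left out.

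Log2 fold changes near 0 changed sign, and the cause was not tested. Gstm2 was -0.049 with the stricter filter, -0.23 with limma-voom, -0.38 without the libraries rich in receptor genes, -0.33 with only libraries coded RM1, RM3 and RM4, and -0.14 to 0.11 with a library left out. Gstm3 was 0.057 with upper-quartile scaling, 0.040 without a filter, 0.0024 with DESeq2, 0.0041 without Rn45s and haemoglobin genes, and -0.22 to 0.14 with a library left out. Gstm4 was -0.016 with the stricter filter, -0.093 with only RM1, RM3 and RM4, and -0.054 to 0.18 with a library left out. Gstp1 was -0.012 with limma-voom, -0.072 without the libraries rich in receptor genes, -0.12 with only RM1, RM3 and RM4, and -0.013 to 0.13 with a library left out. Gstp2 was -0.010 with only RM1, RM3 and RM4.

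With the replicate number as a block, 8433 genes were called in UUO against sham instead of 9036, and 4 members were higher and 21 lower. Under the block Ggt7 lost its call (0.97, edgeR adjusted p = 0.0724), Gpx4 passed (-0.83, adjusted p = 0.00229), and Gstm2 (-0.23), Gstm4 (-0.17) and Gstp1 (-0.022) were below 0. UUO_Si against UUO had 0 genes called under the block. The labels do not say whether the numbers pair the libraries.

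Depth limits Gpx2, Mgst2, Gsto2, Chac1, Gstm3, Gstm6 and Gstm7, whose group means were at most 3.33 CPM.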
